A study of Mus musculus with 6 samples.

Results

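The 8 genes described here are Tbx21, Eomes, Stat4, Ifng, Gata3, Bcl6, Prdm1 and Tox, 7 regulators of effector lymphocytes and the cytokine interferon-gamma. They were chosen by name, with earlier results of these data known, so their p-values are not those of genes picked blindly. All 8 were found among the 22180 genes tested. Each is read on the brightest probe set that carries only that gene's symbol. For 7 of them there was 1 such probe set, and for Gata3 there were 2. The cells were macrophages that had entered BALB/c hearts grafted into fully mismatched C57BL/6 mice, sorted by flow cytometry on day 6. In 3 samples the recipients had been given mTORi-HDL, a high-density lipoprotein nanoparticle carrying an inhibitor of mTOR, at 5 mg/kg on days 0, 2 and 5. In the other 3 samples the recipients had no treatment and rejected the graft. All recipients were C57BL/6 and all grafts allogeneic, and no group received the lipoprotein without the inhibitor, so drug and carrier cannot be told apart. The labels do not say whether a sample is 1 mouse or a pool, so the p-values measure the spread between these samples, which may in part be technical. Each sample was amplified from 15 ng of RNA and read on 1 array. Values are RMA log2 expression, and differences are mTORi-HDL minus untreated on that scale.

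T-bet (encoded by Tbx21) and Eomes are T-box transcription factors that direct type 1 and cytotoxic programmes in T cells and NK cells. IL-12 acts through STAT4 in these cells, and T-bet and STAT4 together drive transcription of Ifng, whose product activates macrophages. GATA3 directs type 2 helper cells, BCL6 follicular helper cells, Blimp-1 (encoded by Prdm1) terminal effector and plasma cells, and TOX the persistence of chronically stimulated CD8 T cells. BCL6 and Blimp-1 repress each other's genes, and both are also made in myeloid and B lineage cells.

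The cells had been sorted as macrophages, so markers of macrophages and T cells were examined first. The macrophage markers differed in level. Cd68 ranged from 8.78 to 10.87 and Lyz2 from 10.80 to 11.62 over the 6 arrays. Csf1r was at 5.00 on mTORi-HDL 1 and at 7.54 to 9.08 on the other arrays, and Adgre1 at 4.93 and at 6.05 to 8.72. Cd163, at 2.85 to 3.85, was below the median level of all genes (4.18) on every array. T cell transcripts were also abundant: Cd3g, of the CD3 complex, had log2 levels of 10.66, 10.96 and 10.74 in untreated samples and of 8.63, 9.57 and 9.56 in treated samples. In such a mixture, fewer T cells and less RNA per T cell cannot be told apart. The array mTORi-HDL 1 was unlike the other 5. Its correlation with each other array across probe sets was 0.708 to 0.741, and among the remaining 5 arrays this was 0.892 to 0.912. Its SD over genes was 1.41, against 1.86 to 1.94 on the others. All 8 genes had their lowest value on that array, as did 23.4% of all genes, so values without this array are given beside those over all 6, in parentheses where no other words introduce them.

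Promoter sequences of the genes on which the comparison turned are shown first, from RefSeq (build GRCm38.p6). These are Ifng, Stat4 and Gata3, whose groups of arrays did not overlap, Tbx21, which with Gata3 had the smallest p among the 8, and Bcl6, whose direction depended on mTORi-HDL 1. Each window runs from 250 bases before to 50 bases after a transcript start, on the gene's own strand, 5′ to 3′. Capitals mark matches to any of 4 motifs searched on both strands: AGGTGTNA and its overlapping core GGTGTGA for T-box factors, TTCNNNGAA for STAT factors and AGATAA for GATA factors. Start sites were listed for 7 of the 8 genes, in 9 windows. Tox was not among them.
Ifng (chr10:118440796-118441095, plus strand): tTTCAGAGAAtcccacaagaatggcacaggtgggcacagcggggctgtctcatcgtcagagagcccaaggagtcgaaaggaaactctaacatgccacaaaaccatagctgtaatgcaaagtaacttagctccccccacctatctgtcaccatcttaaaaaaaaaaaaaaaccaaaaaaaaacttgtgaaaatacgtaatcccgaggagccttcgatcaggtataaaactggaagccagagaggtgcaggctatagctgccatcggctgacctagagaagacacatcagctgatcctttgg
Stat4, first start (chr1:51986898-51987197, plus strand): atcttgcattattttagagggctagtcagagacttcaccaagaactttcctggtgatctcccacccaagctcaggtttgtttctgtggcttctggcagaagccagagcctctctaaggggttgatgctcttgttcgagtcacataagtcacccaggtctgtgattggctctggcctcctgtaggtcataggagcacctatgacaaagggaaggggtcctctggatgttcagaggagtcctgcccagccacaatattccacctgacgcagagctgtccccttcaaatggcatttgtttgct
Gata3 (chr2:9878551-9878850, minus strand): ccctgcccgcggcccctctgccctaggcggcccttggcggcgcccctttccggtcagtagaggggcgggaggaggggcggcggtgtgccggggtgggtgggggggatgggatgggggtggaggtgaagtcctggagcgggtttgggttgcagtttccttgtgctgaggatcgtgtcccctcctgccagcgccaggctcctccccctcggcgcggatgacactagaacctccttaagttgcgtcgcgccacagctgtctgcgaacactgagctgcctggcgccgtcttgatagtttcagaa
Tbx21 (chr11:97115282-97115581, minus strand): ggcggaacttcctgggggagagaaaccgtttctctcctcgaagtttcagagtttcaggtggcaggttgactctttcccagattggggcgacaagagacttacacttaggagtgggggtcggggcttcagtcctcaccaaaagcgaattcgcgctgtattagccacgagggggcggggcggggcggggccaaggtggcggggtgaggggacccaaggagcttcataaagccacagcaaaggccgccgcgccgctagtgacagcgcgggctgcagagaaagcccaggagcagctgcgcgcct
Bcl6, second start (chr16:23981234-23981533, minus strand): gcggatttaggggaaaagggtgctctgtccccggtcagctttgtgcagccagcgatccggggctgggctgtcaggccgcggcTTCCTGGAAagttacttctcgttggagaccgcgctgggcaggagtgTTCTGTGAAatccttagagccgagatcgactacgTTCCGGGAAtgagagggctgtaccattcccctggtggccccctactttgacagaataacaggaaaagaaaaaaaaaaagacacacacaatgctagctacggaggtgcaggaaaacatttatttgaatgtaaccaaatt

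The Ifng window held 1 match to the STAT motif, TTCAGAGAA, at its 5′ end. The second Bcl6 window held 3, TTCCTGGAA, TTCTGTGAA and TTCCGGGAA, and the other Bcl6 window held 1. No T-box or GATA match was found in any of the 9 windows. Over 32851 promoters of the same length, 8.3% held the STAT motif, 3% AGGTGTNA, 4% GGTGTGA and 11.2% AGATAA. The windows differed in base composition. Gata3 and Tbx21 were 67.3% and 62% G or C with 22 and 21 CpG dinucleotides, while Ifng and the first Stat4 window were 46% and 50.7% with 7 and 2. The median promoter was 52.7% with 7. A match describes letters only, and binding was not measured.

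Over all 6 arrays each of the 8 genes had a lower mean in treated samples, where 41.8% of all genes did. Their median difference was -1.0, against 0.08 over all genes. These shares and medians are over genes of all levels, while each of the 8 had a mean above the median level (4.18). Values for equally bright genes were not computed. None of the 8 passed an adjusted p of 0.05 in limma's test with Benjamini-Hochberg adjustment over all genes, and 0 genes passed in the whole table (0%). An unadjusted p under 0.05 was reached by 2 of the 8, Gata3 and Tbx21, both lower. Of all genes 3.07% were lower at that level. All treated arrays lay below all untreated arrays for 3 of the 8, Stat4, Ifng and Gata3, and for 5.53% of all genes. Without mTORi-HDL 1 the mean was lower for 6 of the 8 (53.4% of all genes) and higher for Bcl6 and Prdm1 (46.6%). Their median difference was then -0.55, against -0.03 over all genes. The genes at an unadjusted p under 0.05 were then Stat4 and Gata3 (3.51% of all genes were lower at that level), 0 genes passed adjustment (0%), and the 3 genes without overlap were again Stat4, Ifng and Gata3 (12.5%).

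**Figure D1:**
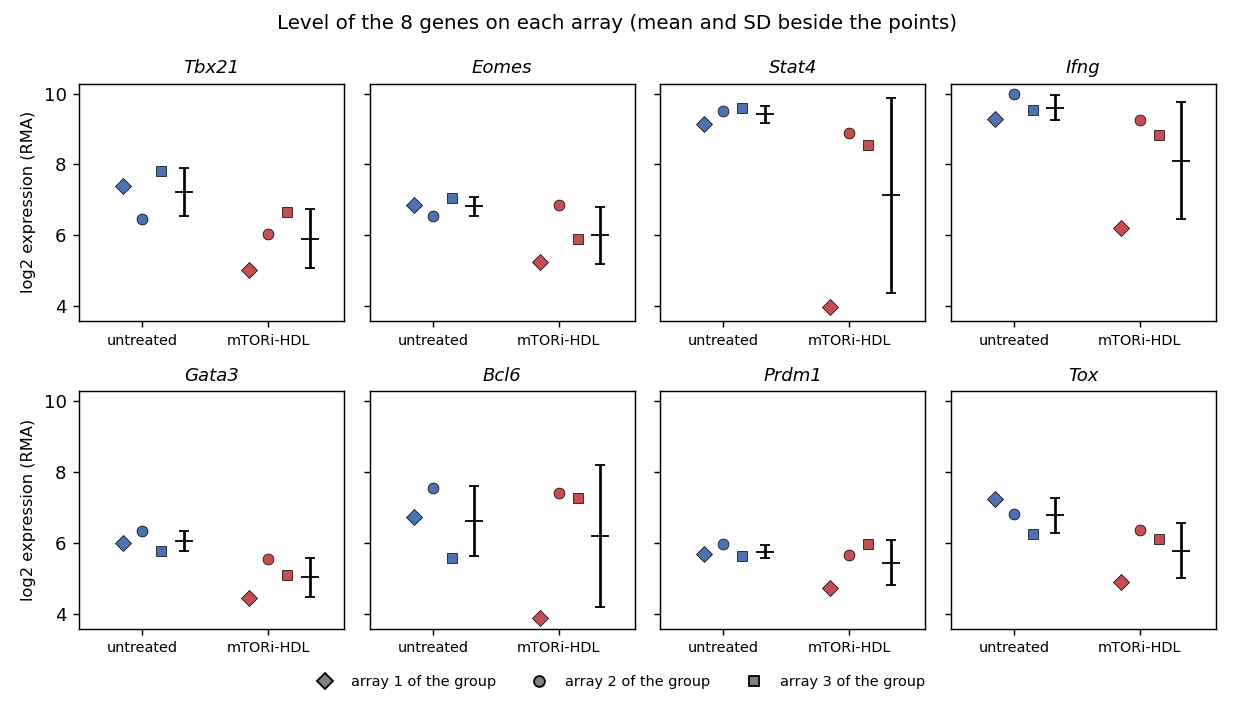
RMA log2 expression (y axis) of each of the 8 genes on the 3 untreated (blue) and 3 mTORi-HDL arrays (red). Marker shapes give the array number within a group, and the bar beside the points is the mean with its SD. The red diamond, mTORi-HDL 1, is the lowest point for each of the 8 genes, and Stat4, Ifng and Gata3 show no overlap between groups.

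Ifng, the cytokine of the type 1 response, had log2 levels of 9.29, 9.98 and 9.53 in untreated samples. In treated samples it had 6.20, 9.25 and 8.83. The highest treated array lay just under the lowest untreated one, so the groups did not overlap but nearly touched. The difference was -1.50 ± 0.75 (SE, n = 3 each), with a 95% interval of -3.26 to 0.26 (limma, unadjusted p = 0.0841, adjusted p = 0.890). An exact two-sided permutation test over the 6 arrays gave p = 0.1, the smallest that 3 arrays against 3 can give. Without mTORi-HDL 1 the difference was -0.55 ± 0.29, which is 1.47-fold on the linear scale against 2.83-fold with it, and the interval ran from -1.24 to 0.13.

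Stat4, the transducer of IL-12 signals, had 9.13, 9.52 and 9.58 in untreated samples and 3.96, 8.88 and 8.56 in treated samples. Its reading on mTORi-HDL 1 differed by -4.76 from the mean of the other treated arrays, the widest such gap among the 8. That reading was under the array's own median over genes (4.38), so the size of the gap is uncertain. The difference was -2.28 ± 1.19 over all arrays (limma, unadjusted p = 0.0954, adjusted p = 0.890) and -0.69 ± 0.25 without that array (unadjusted p = 0.0281, adjusted p = 0.619). The remaining treated arrays still lay below every untreated array, by 1.62-fold on average. The straight line of mTORi-HDL 1 on the mean of the other 5 arrays, over all genes, had a slope of 0.58. It put each of the 8 lower on mTORi-HDL 1 than on that mean, at 7.35 against 9.38 for Ifng and 5.24 against 5.75 for Gata3. Stat4 lay at -3.24 and Bcl6 at -2.03 from that line, and the other 6 genes lay between -1.14 and -0.50 from it, against a residual SD of 0.90 over all genes. The part of this array's behaviour in the differences was not tested.

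Tbx21 had 7.39, 6.47 and 7.80 in untreated and 5.01, 6.04 and 6.66 in treated samples. The third treated array lay above untreated 2, so the groups overlapped. The difference was -1.31 ± 0.51 with an interval of -2.51 to -0.11 (limma, unadjusted p = 0.0361, adjusted p = 0.890), and -0.86 ± 0.42 without mTORi-HDL 1 (unadjusted p = 0.0831). Eomes, its T-box relative in cytotoxic and NK cells, had 6.85, 6.53 and 7.06 in untreated and 5.25, 6.84 and 5.90 in treated samples. Treated 2 was level with the untreated arrays and treated 3 was not. The difference for Eomes was -0.82 ± 0.43 with mTORi-HDL 1 and -0.44 ± 0.34 without it, and both intervals included 0.

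Gata3, the type 2 regulator, had 6.00, 6.34 and 5.79 in untreated and 4.45, 5.55 and 5.09 in treated samples. All treated arrays were lower than all untreated arrays, with or without mTORi-HDL 1. The difference was -1.01 ± 0.35, a 2.02-fold lower level, with an interval of -1.83 to -0.19 (limma, unadjusted p = 0.0223, adjusted p = 0.890). Without mTORi-HDL 1 it was -0.72 ± 0.27 (unadjusted p = 0.0332, adjusted p = 0.656). The other Gata3 probe set with a single symbol had 5.76, 5.25 and 4.95 in untreated and 4.54, 5.23 and 4.47 in treated samples, a difference of -0.57 (-0.47) with overlapping groups.

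Tox had 7.24, 6.83 and 6.26 in untreated and 4.90, 6.36 and 6.10 in treated samples. Its groups overlapped through treated 2 and untreated 3, and the difference was -0.99 ± 0.46 (limma, unadjusted p = 0.0637, adjusted p = 0.890) or -0.55 ± 0.32 without mTORi-HDL 1. Prdm1 was the most even of the 8. It had 5.69, 5.96 and 5.63 in untreated and 4.73, 5.65 and 5.96 in treated samples. Its difference was -0.31 ± 0.37 with that array and 0.05 ± 0.23 without it, and the interval without it ran from -0.51 to 0.60. Bcl6 had 6.73, 7.56 and 5.58 in untreated and 3.88, 7.42 and 7.27 in treated samples. The value of 3.88, on mTORi-HDL 1, was under that array's median over genes (4.38). Bcl6 was the most variable of the 8 among untreated samples (SD 0.99). Its difference of -0.43 ± 0.97 turned to 0.72 ± 0.54 without mTORi-HDL 1, with an interval of -0.56 to 2.00.

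**Figure D2:**
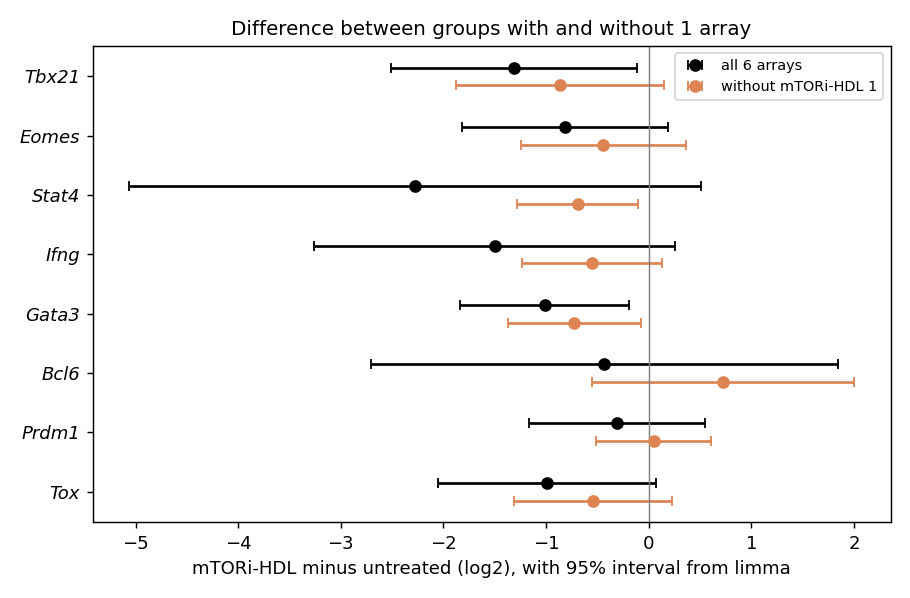
Difference between mTORi-HDL and untreated samples (x axis, log2) for each of the 8 genes, with the 95% interval from limma, over all 6 arrays (black) and without mTORi-HDL 1 (orange). The orange points lie nearer to 0 for Stat4 (-0.69 against -2.28) and Ifng (-0.55 against -1.50), and to the right of 0 for Bcl6 and Prdm1.

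The T cell identity genes had a larger median difference than the 8. All 16 measured genes of this list of 19 were lower in treated samples (41.8% of all genes), 12 of them without overlap between groups (5.53%). An unadjusted p under 0.05 was reached by 11 (3.07% of all genes were lower at that level), and 0 passed adjustment. The median difference of the list was -1.51, and -0.97 without mTORi-HDL 1. Without that array 13 of 16 had an unadjusted p under 0.05 (3.51% of all genes were lower at that level) and 0 passed adjustment. The mean of the list was 8.82, 8.89 and 8.56 on the untreated arrays and 6.24, 7.78 and 7.74 on the treated arrays. Cd4, the helper cell co-receptor, had a difference of -2.60 ± 0.85 (-1.51 ± 0.25 without mTORi-HDL 1). Its reading of 3.08 on mTORi-HDL 1 was under that array's median over genes (4.38), so the size of the difference over all arrays is uncertain. Cd8a, of cytotoxic T cells, had -1.54 ± 0.63 (-0.90 ± 0.46). Cd8b1, of the same cells, had -0.65 ± 0.46 (-1.08 ± 0.34). It read 9.52 on mTORi-HDL 1, within its untreated levels, so its groups overlapped over all arrays. The signalling chain Cd3e had -1.99 ± 0.82 (-0.93 ± 0.24). The smallest p values of the list belonged to Cd3g, at -1.53 ± 0.34 (-1.22 ± 0.22), Cd6, a T cell surface receptor, at -1.49 ± 0.34 (-1.16 ± 0.21), and the receptor-proximal kinase Zap70, at -1.20 ± 0.30 (-0.97 ± 0.23).

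Each of the 8 genes was then expressed relative to the mean of the T cell list on the same array. The list mean was itself lower in treated samples, by -1.50 (-1.0 without mTORi-HDL 1), so a gene with equal levels in both groups lies above 0 on this scale. Over all arrays 7 of the 8 had a higher relative mean in treated samples and Stat4 a lower one, while 98.3% of all genes had a higher one. Without mTORi-HDL 1 all 8 were higher, by 0.13 (Tbx21) to 1.72 (Bcl6), as were 98.1% of all genes. These counts are therefore no result about the 8. Groups did not overlap for Prdm1 alone over all arrays (78.4% of all genes), and for Prdm1, Ifng and Bcl6 without mTORi-HDL 1 (82.9%). Measured from the untreated mean, the relative value of Prdm1 was 1.49, 0.87 and 1.22 in treated samples and between -0.13 and 0.07 in untreated samples, a difference of 1.19 for a gene whose own level differed by -0.31. Ifng had a relative difference of 0.00 over all arrays, with -0.88, 0.64 and 0.25 on treated arrays 1, 2 and 3, and of 0.44 without the first. Over all arrays the differences were 1.07 for Bcl6, 0.69 for Eomes, 0.51 for Tox, 0.49 for Gata3, 0.19 for Tbx21 and -0.77 for Stat4, each with overlapping groups.

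**Figure D3:**
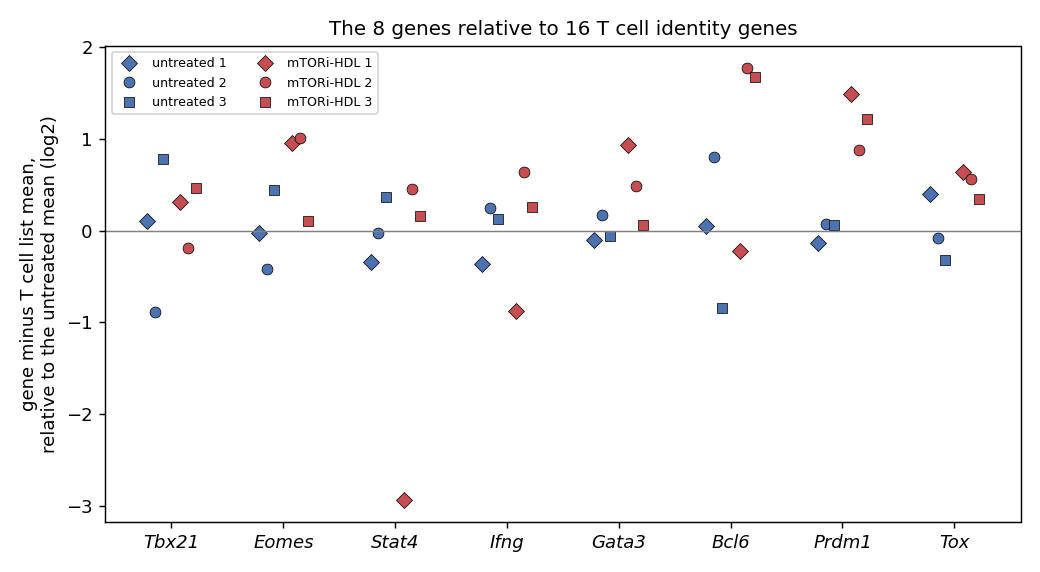
Value of each of the 8 genes minus the mean of 16 T cell identity genes on the same array, set to 0 at the mean of the untreated arrays (y axis, log2), for untreated (blue) and mTORi-HDL (red) arrays. The treated points of Prdm1 lie 0.87 to 1.49 above the untreated mean, and Stat4 on mTORi-HDL 1 lies at -2.93.

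Type 1 effector genes downstream of T-bet and Eomes were mostly lower. Of 19 measured genes (20 listed), 13 were lower (41.8% of all genes), 3 of them with an unadjusted p under 0.05 (3.07%), and 0 passed adjustment. The median difference was -0.42, and -0.33 without mTORi-HDL 1. Without that array 14 of 19 were lower (53.4% of all genes), 4 of them at that level (3.51%). Of the 5 higher genes, 2 reached it too (3.47%). These 2 were Furin, a protease gene (0.63 ± 0.43 over all arrays, 0.95 ± 0.38 without mTORi-HDL 1), and Runx3, a transcription factor gene of cytotoxic cells (-0.37 ± 0.74, 0.58 ± 0.22). The chemokine receptor gene Cxcr3, a T-bet target, had 8.69, 8.36 and 7.85 in untreated and 5.44, 6.83 and 6.61 in treated samples. Every treated array was more than 1 log2 unit below every untreated one, and the difference was -2.01 ± 0.43 (limma, unadjusted p = 0.00204, adjusted p = 0.696), or -1.58 ± 0.30 without mTORi-HDL 1. Gzmk, granzyme K, had a difference of -2.43 ± 0.57 (-2.26 ± 0.62) and Gzmb, granzyme B, one of -1.06 ± 0.39 (-0.66 ± 0.25). Prf1, the pore-forming protein perforin, had -1.69 ± 0.78 and, without that array, -0.73 ± 0.37. Other bright genes of the list differed less. Gzma had -0.19 ± 0.29 (-0.18 ± 0.29) and Nkg7 -0.42 ± 0.25 (-0.33 ± 0.22). Ccl5 had 0.03 ± 0.28 (0.22 ± 0.22) and Xcl1 0.23 ± 0.32 (0.36 ± 0.30).

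The list of IL-12 and IL-18 receptors and STAT4 partners gave a different picture. It also held genes of other cytokine receptors and of kinases. Of 10 measured genes (11 listed), 7 were lower over all arrays, but 3 were lower and 7 higher without mTORi-HDL 1, on which the list mean lay at -2.60 from the untreated mean. Of all genes 41.8% were lower over all arrays and 53.4% without mTORi-HDL 1. The median of the list went from -0.70 to 0.24. Il18r1, an IL-18 receptor chain, was the 1 gene with an unadjusted p under 0.05 over the 6 arrays, at -1.18 ± 0.48 (-0.66 ± 0.29). Il2rb, the beta chain shared by the IL-2 and IL-15 receptors, had -2.39 ± 1.25, and -0.74 ± 0.31 without that array. Il12rb2, the signalling chain of the IL-12 receptor, had 8.05, 7.95 and 8.18 in untreated and 4.73, 7.95 and 7.93 in treated samples, a difference of -1.19 ± 0.82 (-0.12 ± 0.21). Il12rb1, the other chain, had 0.20 ± 0.30 (0.22 ± 0.30).

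The next list held 13 genes upstream of STAT4 and T-bet, Cd40 and otherwise ligands, most of them made by antigen-presenting cells. Of these, 8 were higher (2 with an unadjusted p under 0.05) and 5 lower (1), with 0 past adjustment. Of all genes 58.2% were higher (1.57% at that level) and 41.8% lower (3.07%). The median of the list was 0.22 (0.19 without mTORi-HDL 1). The costimulatory receptor gene Cd40 was higher on every treated array (7.62, 7.89 and 8.15 against 6.88, 6.03 and 6.57), by 1.39 ± 0.32 (limma, unadjusted p = 0.00280, adjusted p = 0.696), or 1.53 ± 0.30 without mTORi-HDL 1. Cd86, a costimulatory ligand, was higher by 1.69 ± 0.54 (2.02 ± 0.54) with overlapping groups. Il21, a cytokine of helper T cells, had a difference of -1.39 ± 0.55 (-1.56 ± 0.60). Il12b, the shared subunit of IL-12 and IL-23, had a difference of 0.76 ± 0.52 (0.76 ± 0.59). Il12b and Il12rb1 were dim, with both group means under the median level of all genes.

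Genes of the interferon-gamma receptor and its targets did not follow Ifng on treated arrays 2 and 3. Over all arrays 16 of 26 measured genes (28 listed) were higher and 10 lower, and 58.2% of all genes were higher. An unadjusted p under 0.05 was reached by 2, both higher (1.57% of all genes), with 0 past adjustment and a median of 0.12. Without mTORi-HDL 1, 22 of 26 were higher, 12 of them with an unadjusted p under 0.05 (3.47% of all genes) and 15 without overlap between groups (9.75%), again with 0 past adjustment, and the median was 0.68. The list mean was 8.40, 8.70 and 8.31 on the untreated arrays, and 7.22, 9.05 and 9.02 on the treated arrays. The attractant gene Cxcl9, a target of interferon-gamma in macrophages, had 11.59, 11.72 and 11.38 in untreated and 11.85, 12.48 and 12.52 in treated samples, a difference of 0.72 ± 0.29 (limma, unadjusted p = 0.0418, adjusted p = 0.890), or 0.94 ± 0.22 without mTORi-HDL 1. Cxcl10, a second attractant for cells with CXCR3, had 8.85, 9.28 and 8.56 against 10.41, 9.74 and 9.60, a difference of 1.02 ± 0.34 (0.77 ± 0.27). Neither gene's groups overlapped, while Ifng itself was lower on the same treated arrays. The class II gene H2-Aa had a difference of 0.63 ± 0.34 over all arrays and 0.96 ± 0.20 without mTORi-HDL 1.

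The receptor chains themselves differed from each other. Ifngr1, the ligand-binding chain, had 10.23, 10.21 and 10.03 in untreated and 4.88, 10.03 and 9.90 in treated samples, so that its difference of -1.89 ± 1.27 came down to -0.19 ± 0.21 without mTORi-HDL 1. Ifngr2, the signalling chain, had a difference of 0.48 ± 0.39 over all arrays and 0.89 ± 0.22 without that array. The transcription factor gene Irf1, an early target, had 0.09 ± 0.71 and 0.96 ± 0.32. Macrophage markers were higher on the same arrays. Of 16 measured (17 listed), 13 were higher over all arrays with a median of 0.62. An unadjusted p under 0.05 was reached by 5 and an adjusted one by 0. Without mTORi-HDL 1 these counts were 15 and 9, with 0 past adjustment and a median of 1.02. Of all genes 58.2% were higher over all arrays and 46.6% without mTORi-HDL 1. At an unadjusted p under 0.05 these shares were 1.57% and 3.47%. The mean of the macrophage list ranged from 6.58 to 6.90 on untreated and from 6.54 to 8.08 on treated arrays. Of these markers, the Fc receptor genes Fcgr1, at 1.84 ± 0.44 (1.99 ± 0.46), and Fcgr3, at 1.0 ± 0.29 (1.02 ± 0.29), and the complement gene C1qc, at 0.77 ± 0.25 (0.71 ± 0.22), had the smallest p. Csf1r, the growth factor receptor of macrophages, had a difference of -0.28 ± 1.0 over all arrays and 1.03 ± 0.27 without mTORi-HDL 1. The part of the macrophage share in the interferon-gamma targets was not tested.

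**Figure D4:**
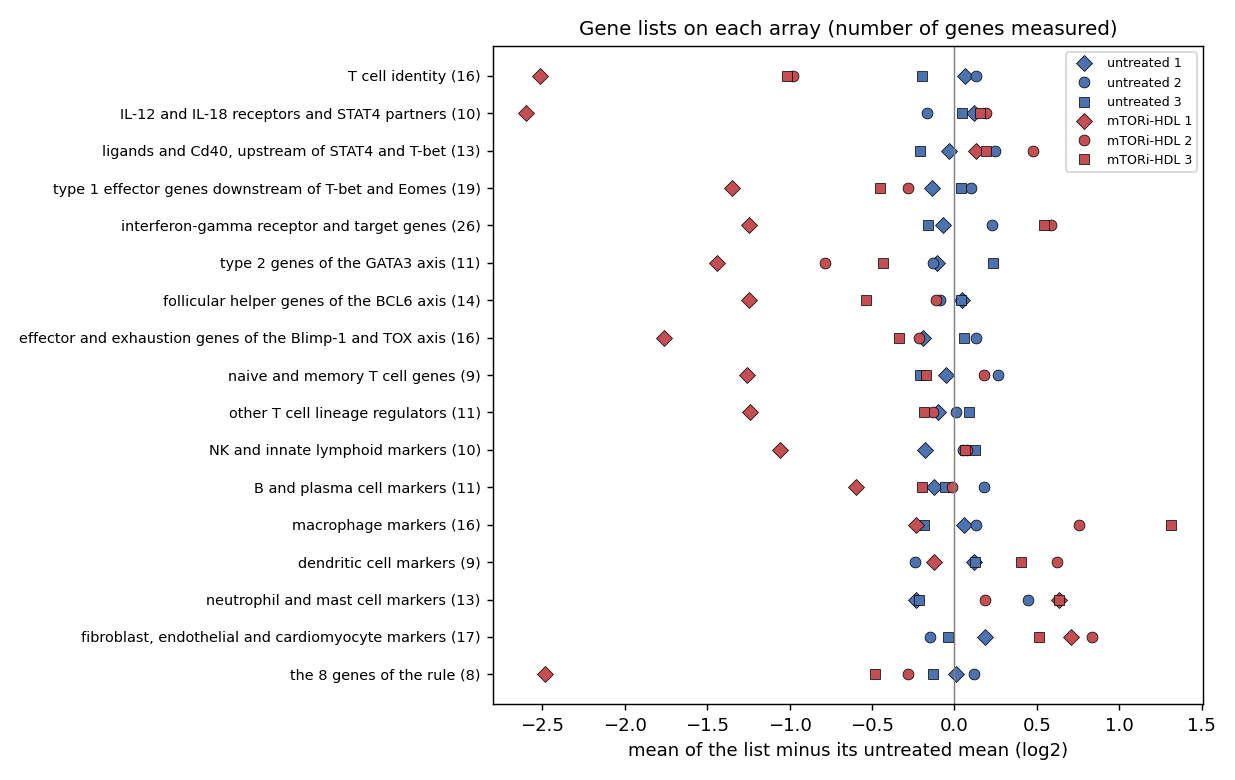
Mean of each gene list on each array minus its mean over the untreated arrays (x axis, log2), with untreated arrays in blue, mTORi-HDL arrays in red and the number of genes measured in parentheses. The T cell list lies at -0.98 and -1.02 on treated arrays 2 and 3, where the interferon-gamma target list lies at 0.58 and 0.55.

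Partners of the other regulators were examined in the same way. Among type 2 genes of the GATA3 axis, 9 of 11 (14 listed) were lower, where 41.8% of all genes were. An unadjusted p under 0.05 was reached by 3 of the 9 (3.07% of all genes were lower at that level), with 0 past adjustment. The median was -0.37, and -0.25 without mTORi-HDL 1, when again 9 were lower (53.4% of all genes). The chemokine receptor gene Ccr8 had 7.50, 8.47 and 8.76 in untreated and 3.89, 3.92 and 6.40 in treated samples. Its groups were more than 1 log2 unit apart. The difference was -3.51 ± 0.71 (limma, unadjusted p = 0.00141, adjusted p = 0.639), or -3.09 ± 0.73 without mTORi-HDL 1. The treated values of 3.89 and 3.92 lie under the median level of all genes (4.18), so the size of the Ccr8 difference is uncertain. The type 2 cytokine gene Il13 had -1.51 ± 0.52 (-1.45 ± 0.58) and the receptor gene Ccr4 -1.27 ± 0.51 (-1.50 ± 0.54). Ccr4 was dim, with group means of 2.80 and 4.06 that both lie under the median level of all genes (4.18), so its difference is uncertain. Over all arrays the 2 higher genes were the type 2 cytokine genes Il4, at 0.14 ± 0.33 (-0.07 ± 0.29), and Il5, at 0.15 ± 0.27 (0.04 ± 0.23). Both were also under that median in each group.

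Of 14 genes listed around BCL6 and follicular help, 9 were lower (5 with an unadjusted p under 0.05) and 5 higher (1). Of all genes 41.8% were lower (3.07% at that level) and 58.2% higher (1.57%). In this list 0 passed adjustment, and the median was -1.0 (-0.60 without mTORi-HDL 1). The inhibitory receptor gene Pdcd1, which encodes PD-1, had 6.39, 7.90 and 8.27 in untreated and 5.13, 5.23 and 5.59 in treated samples. Here mTORi-HDL 1 was close to the other treated arrays, and the difference of -2.21 ± 0.49 (limma, unadjusted p = 0.00248, adjusted p = 0.696) was -2.11 ± 0.54 without it. The adaptor gene Sh2d1a, needed for help to B cells, had -1.70 ± 0.52 (-1.12 ± 0.31). The B cell attractant gene Cxcl13, also in this list, was higher, by 1.64 ± 0.40 (1.46 ± 0.40). Which cells of the sort expressed Cxcl13 was not tested.

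Of 16 effector and exhaustion genes tied to Blimp-1 and TOX (17 listed), 13 were lower over all arrays (41.8% of all genes). Without mTORi-HDL 1, 8 were lower (53.4% of all genes), so that count is no result about the list. The median went from -0.52 to 0.08. Over the 6 arrays 3 genes had an unadjusted p under 0.05, each lower on every treated array, and 0 passed adjustment. Of all genes 3.07% were lower at that level. Batf, a transcription factor of activated lymphocytes, had -2.57 ± 0.35 (limma, unadjusted p = 0.000120, adjusted p = 0.468), or -2.23 ± 0.23 without mTORi-HDL 1. Ctla4, an inhibitory receptor, had -1.48 ± 0.26 (-1.42 ± 0.24), and Klrg1, a receptor of terminally differentiated effector cells, had -2.10 ± 0.38 (-1.84 ± 0.34). Klrg1 was at 3.14, 4.07 and 3.78 on the treated arrays, under the median level of all genes (4.18), so the size of its difference is uncertain.

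NK cells also make Ifng, Tbx21 and Eomes, and their markers were set beside these genes. Of 10 measured NK and innate lymphoid markers (15 listed), 7 were lower over all arrays and 4 without mTORi-HDL 1, and in both cases 0 reached an unadjusted p under 0.05 in limma's test. Of all genes 41.8% were lower over all arrays and 53.4% without mTORi-HDL 1. The median of the NK list went from -0.24 to 0.08. The list mean was 8.44 to 8.74 on untreated arrays, and 7.56, 8.69 and 8.68 on treated arrays 1, 2 and 3. Ncr1, an activating receptor of NK cells, had a difference of -0.06 ± 0.68, and of 0.73 ± 0.38 without mTORi-HDL 1. The 3 genes with the smallest p were the receptor genes Klrc1, at -1.33 ± 0.74 (-0.47 ± 0.43), and Klre1, at -0.94 ± 0.86 (0.14 ± 0.35), and the signalling chain gene Fcer1g, at 0.36 ± 0.27 (0.48 ± 0.23), which macrophages also express. B lineage cells make Bcl6 and Prdm1. Of 11 B and plasma cell markers (12 listed), 8 were lower, where 41.8% of all genes were. Their median was -0.13 (-0.12), and 0 passed adjustment. Ms4a1, which encodes CD20, was the 1 gene with an unadjusted p under 0.05, at -0.83 ± 0.35 (-0.62 ± 0.32). Blk, a kinase of B cells, had 0.73 ± 0.35 (0.48 ± 0.30) and Cd79a, part of the B cell antigen receptor, had -0.79 ± 0.39 (-0.43 ± 0.27). The part of NK and B cells in the 8 genes' differences was not tested.

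The profiles most like those of Ifng and Tbx21 were sought among the 11090 genes brighter than the median, by the root mean square distance between gene-centred log2 values. For Ifng over 6 arrays the 5 nearest were Ppp2r5a (0.08), Taf15 (0.11), Cdc123 (0.12), Crbn (0.13) and Dnajc9 (0.14). All of them had their lowest value on mTORi-HDL 1, as Ifng did. Without that array the 5 nearest were Saal1 (0.05), Pycrl (0.05), Msh6 (0.07), Mrps11 (0.08) and Ppp2r5a (0.09), so Ppp2r5a, a phosphatase subunit gene, was in both sets. For Tbx21 over 6 arrays they were Nde1 (0.17), Prkcsh (0.20), Prmt1 (0.20), Dync1li1 (0.21) and Slc7a6 (0.22), and without mTORi-HDL 1 they were Trim59 (0.08), Gm19765 (0.09), Polq (0.11), H4c12 (0.13) and Hcfc1 (0.15). The sets for Tbx21 shared no gene. With 6 or 5 arrays such distances describe these arrays only.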

How the data were processed

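The deposited table held log2 values of 41345 probe sets on 6 arrays, made by the authors with RMA in Affymetrix Expression Console (per the submitters' processing notes, without versions). RMA corrects background, quantile-normalizes and summarises probes. Genome build and sort markers: not given in the sources used here. The platform annotation gave 1 symbol for 23521 probe sets, several for 1814 and none for 16010. The brightest probe set per gene left 22180 genes, with no filter and no further normalization. The test was limma's (version 3.58.1, R 4.3.3, lmFit with eBayes, group as term, 4 residual degrees of freedom), two-sided, with Benjamini-Hochberg adjustment over all genes. The fit was also run on simulated data. Their spread was that of the arrays without mTORi-HDL 1, so no simulated array behaved like mTORi-HDL 1. How the fit deals with such an array was not tested. Arrays have no read depth, and their number limits the precision. The 8 genes and the lists were chosen with earlier results of these data known, so no list was tested and the p-values of the 8 are not those of a blind choice. The genes named are the 8, the 3 with the smallest p per list, a panel of 20 (17 measured, the others not analysed here) and the 5 nearest profiles. Ppp2r5a, Cd68, Lyz2, Adgre1, Cd163, Furin, Runx3, S100a8, S100a9, Pecam1 and H2bc12 were singled out after their values were seen. So were Gzma, Nkg7, Ccl5, Xcl1, Cd8b1, Il4, Il5, Col1a1 and Col3a1. Alternatives were other normalizations, brightness filters, eBayes with trend and robust, array weights, a replicate block, each array left out, other probe-set rules and an adjusted p of 0.1.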

Additional observations from a re-analysis of the deposited data

How the results depend on the processing

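An adjusted p of 0.05 was passed by 0 of the 8 genes in limma's test under each alternative run. The number of genes passing in the whole table was 0 under each alternative except array weights, which gave mTORi-HDL 1 a weight of 0.15 and called 1 gene, H2bc12 (limma, adjusted p = 0.0200). The median difference of the 8 genes was negative throughout, from -1.27 (without mTORi-HDL 2) to -0.55 (without mTORi-HDL 1). The difference of Bcl6 reversed to 0.072 under cyclic loess, 0.64 under array weights, 0.72 without mTORi-HDL 1, 0.036 without untreated 2, and 0.72 after quantile normalization of the 5 arrays without mTORi-HDL 1, a setting added after the data were seen. It ranged from -1.04 to 0.72 over the arrays left out. That of Prdm1 reversed to 0.035 under array weights, 0.047 without mTORi-HDL 1 and 0.080 in the added setting, and ranged from -0.57 to 0.047 over the arrays left out. The other 6 genes were lower under every alternative, Gata3 from -1.27 to -0.57, Stat4 from -3.15 to -0.69, Ifng from -2.08 to -0.55, Tbx21 from -1.69 to -0.78, Tox from -1.28 to -0.52 and Eomes from -1.24 to -0.31. Relative to the T cell list, Stat4 reversed to 0.31 without mTORi-HDL 1 (range -1.39 to 0.31), Tbx21 to -0.25 without untreated 2 (range -0.25 to 0.58), and Ifng to -0.31, -0.12 and -0.18 without mTORi-HDL 2, mTORi-HDL 3 and untreated 1 (range -0.31 to 0.44). The cause of these reversals was not tested.

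Groups share replicate numbers in the titles. Same-numbered arrays deviated together with correlations of 0.136, 0.135 and -0.024, and differently numbered arrays with -0.163 to 0.126. The main fit did not take the numbers to pair the samples. So few arrays cannot settle whether they do. With the replicate number as a block, 4 of the 8 genes (Tbx21, Gata3, Stat4 and Ifng) were lower at an unadjusted p under 0.05 instead of 2, with 1183 of all genes at that level instead of 1029 (both directions), and 0 passed adjustment (adjusted p = 0.847 for Ifng). Without single arrays this count ran from 0 (without untreated 1, with 706 of all genes) to 5 (without mTORi-HDL 2, with 1495), and was 1 without untreated 2 (655). For all genes the number was 1547 without mTORi-HDL 1, 615 without untreated 3 and 1768 with array weights. All these counts over the 22180 genes hold both directions, while those of the 8 hold lower genes only, so they are not directly comparable.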

Other observations

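Values in parentheses are without mTORi-HDL 1. Genes of other T cell states were less uniform than the T cell identity list. Of all genes 41.8% were lower with mTORi-HDL 1 and 53.4% without it. Of 9 naive and memory genes (11 listed), 7 were lower with mTORi-HDL 1 and 5 without it, and the medians were -0.64 and -0.11. In that list Id3, an inhibitor of DNA-binding factors, was higher by 0.83 ± 0.32 (1.08 ± 0.24), and 0 genes passed limma's adjusted p of 0.05. Foxo1 and S1pr1, the next by p, had differences of -0.64 ± 0.39 (-0.26 ± 0.25) and -0.87 ± 0.55 (-0.28 ± 0.36). Of 11 other lineage regulators (12 listed), 7 were lower in both cases, with medians of -0.47 and -0.24 and 0 past adjustment. Stat5b, a transducer of IL-2 signals, had -1.14 ± 0.32 (-0.93 ± 0.27) and Ikzf2, the gene of Helios, had -1.95 ± 0.68 (-1.23 ± 0.48). Foxp3, the regulator of regulatory T cells, had 5.75, 6.13 and 7.03 in untreated and 5.51, 5.49 and 5.82 in treated samples, a difference of -0.70 ± 0.37 (-0.65 ± 0.39) with overlapping groups. Zbtb16 was higher by 0.84 ± 0.40 (0.40 ± 0.22). Its untreated mean of 3.79 was under the median level of all genes (4.18), so the size of that difference is uncertain.

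Other cell types that the sort could hold were higher or mixed. Of all genes 58.2% were higher (46.6%). Dendritic cell markers were higher in 7 of 9 (10 listed; 6 of 9 without mTORi-HDL 1), with a median of 0.26 (0.44). Batf3 had 1.65 ± 0.35 (1.44 ± 0.32), Ly6d had -0.99 ± 0.35 (-0.65 ± 0.22) and Flt3 had 1.0 ± 0.46 (1.45 ± 0.32). Neutrophil and mast cell markers were higher in 11 of 13 (8 of 13), with a median of 0.48 (0.17). The mast cell genes Cma1, Kit and Gata2 had 0.73 ± 0.27 (0.66 ± 0.24), 0.87 ± 0.34 (0.83 ± 0.35) and 0.56 ± 0.26 (0.42 ± 0.22). Gata2 was under the median level of all genes in both groups, and Cma1 in its untreated mean (4.07). The neutrophil genes S100a8 and S100a9 were the 2 with a negative difference over all arrays, at -0.38 ± 0.82 (-0.45 ± 0.94) and -0.59 ± 0.92 (-0.37 ± 1.06). Fibroblast, endothelial and cardiomyocyte markers, not counted apart by cell type, were higher in 15 of 17 (12 of 17), with a median of 0.40 (0.24). Dcn had 2.22 ± 0.44 (2.56 ± 0.38), Rgs5 1.16 ± 0.27 (1.21 ± 0.25) and Col1a2 2.19 ± 0.55 (2.26 ± 0.61), while the endothelial gene Pecam1 had -0.81 ± 0.65 (-0.041 ± 0.32). The untreated mean of Rgs5, 3.19, was under the median level of all genes (4.18), so the size of its difference is uncertain. The other collagen genes listed, Col1a1 and Col3a1, had 0.30 ± 0.28 (0.38 ± 0.27) and 0.09 ± 0.24 (0.08 ± 0.21). In these lists 0 genes passed adjustment.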
